A study of Mus musculus with 4 samples.

Results

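The genes of cholesterol synthesis and of the sphingolipids and galactolipids of myelin were followed across 4 mouse genotypes, in sciatic nerve taken at 4 months. The set has 31 genes, chosen by symbol from the 24062 gene symbols of the count table. It holds 17 enzymes of the sterol pathway, 5 regulators of that pathway and 9 enzymes that make sphingolipids and galactolipids. All 31 symbols were present, and all 31 reached 1 CPM (the count scaled to library depth, with TMM factors between libraries) in at least 1 library, as did 14700 genes in all.

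Each genotype was measured in 1 RNA sequencing library, and all were labelled C57BL/6. WT mice carried no mutation. PKO mice were P2RY14-/-, lacking the receptor for UDP-sugars. NF1 mice were Nf1fl/fl; Dhh Cre, so that Nf1, which encodes the RAS brake neurofibromin, was deleted where Dhh-Cre is active, including the Schwann cell lineage. The labels do not say which other cells of the nerve carried the deletion. PKO-NF1 mice were P2RY14-/- with the floxed Nf1 alleles and Dhh Cre. The labels give neither the number nor the sex of the mice in a library, and the NF1 library is labelled a repeat. With no replicates there was no replicate check on any difference, and each interval below is a 95% exact conditional interval that covers counting error only.

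Myelin is unusually rich in cholesterol and in galactolipids. Cholesterol hardly enters peripheral nerve from the blood, and Schwann cells make most of what their myelin holds, from acetyl-CoA through mevalonate, squalene and lanosterol. SREBP transcription factors, encoded by Srebf1 and Srebf2, are carried by the escort protein SCAP to the Golgi for activation, while INSIG proteins hold them back when sterols are plentiful. Galactosylceramide and sulfatide start from serine and palmitoyl-CoA, and their very long and often hydroxylated fatty acids are typical of myelin. In whole nerve, fewer cells of a type and less RNA per cell cannot be told apart.

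Total counts ran from 14111201 in WT to 20362685 in PKO, and a gene with 0 counts could lie as high as 3 counts, which is 0.152 to 0.183 CPM. The P2ry14 level was 37.6 CPM for WT, 10.9 CPM for PKO, 65.3 CPM for NF1 and 10.6 CPM for PKO-NF1. Nf1 was at 72.8 CPM in WT, 41.0 CPM in PKO, 63.4 CPM in NF1 and 20.5 CPM in PKO-NF1, so over the whole gene NF1 differed little from WT. The Schwann cell marker Sox10 was present in WT (260 CPM). The NF1 library stood apart. In it 20 skeletal muscle genes took 6.69% of counts, against 0.0165% to 0.141% in the other libraries. It also had no counts of the Y-linked genes Eif2s3y and Ddx3y and 39699 of Xist. PKO-NF1 had 1190 and 842 counts of these Y-linked genes and 9 of Xist. WT had 566, 813 and 10304 counts of Eif2s3y, Ddx3y and Xist, and PKO had 419, 396 and 4948. Sex transcripts thus differed along with genotype in every comparison that includes NF1 or PKO-NF1. There sex and genotype cannot be told apart, which also holds for the X-linked Ebp and Nsdhl. The share of ribosomal protein genes was 3.64% (WT), 14.5% (PKO), 6.75% (NF1) and 11.1% (PKO-NF1).

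Promoter sequence was compared first, because SREBP proteins bind sterol regulatory elements and usually act beside NF-Y, which binds the CCAAT box. RefSeq windows of 250 bases before a start (build GRCm38.p6) were found for 27 of the 31 genes. The letters CCAAT, on either strand, were in the windows of 14 of 14 sterol enzymes, 4 of 5 regulators and 5 of 8 sphingolipid enzymes. Among 10958 genes tested for expression that had a window, 39.9% held them. The sterol regulatory element core TCACNCCAC was in 1 of the 27 genes, Hmgcs1, against 1.18% of tested genes. The GC box GGGCGG was in 24 of 27 genes against 61.9%, and the E-box CACGTG in 7 of 27 against 9.46%. GCGTGGGNG, bound by EGR-family proteins, was in 1 of 27 against 3.38%, and the SOX core ACAANNG in 7 of 27 against 30.3%. Several genes have more than 1 window, and none of these motifs contains another. A match describes the letters only.

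The stretches below are the one regulatory-element match and, for Hmgcs1 and the genes at least 2-fold apart in some comparison, the CCAAT match nearest to the start, where one lay outside the annotated gene body. They were chosen after the search. Capitals mark the matched letters, and ATTGG is CCAAT read on the opposite strand.
Hmgcs1 regulatory element, chr13:119690199-119690237, plus strand, 129 to 137 bases before the start: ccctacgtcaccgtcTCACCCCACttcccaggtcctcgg
Hmgcs1 CCAAT box, chr13:119690291-119690325, plus strand: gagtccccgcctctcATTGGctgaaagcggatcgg
Lss CCAAT box, chr10:76531528-76531562, plus strand: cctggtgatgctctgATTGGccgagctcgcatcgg
Ebp CCAAT box, chrX:8193548-8193582, minus strand: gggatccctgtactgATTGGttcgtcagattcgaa
Srebf1 CCAAT box, chr11:60222728-60222762, minus strand: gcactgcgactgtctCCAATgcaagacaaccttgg
Srebf2 CCAAT box, chr15:82147119-82147153, plus strand: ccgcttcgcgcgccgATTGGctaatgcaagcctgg
Elovl1 CCAAT box, chr4:118428043-118428077, plus strand: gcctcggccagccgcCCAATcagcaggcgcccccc
These stretches were picked for holding the letters, so what they have in common is the choice. The windows of Scap and Degs1 held no CCAAT match.

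Levels in WT were compared per kilobase of the longest transcript, as CPM per kb. Cers2, the ceramide synthase for very long acyl chains, was at 125 CPM per kb, Hmgcs1, which makes HMG-CoA, at 96.1 CPM per kb and the fatty acid elongase Elovl1 at 92.8 CPM per kb. These were the 3 highest of the 31. Ugt8a, which adds galactose to ceramide, followed at 69.4 CPM per kb. At the other end were Lss, the lanosterol synthase, at 3.54 CPM per kb and the sterol reductase Tm7sf2 at 6.03 CPM per kb. Depth did not limit these values much: the fewest counts of any member were the 181 of Lss in PKO-NF1.

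**Figure D1:**
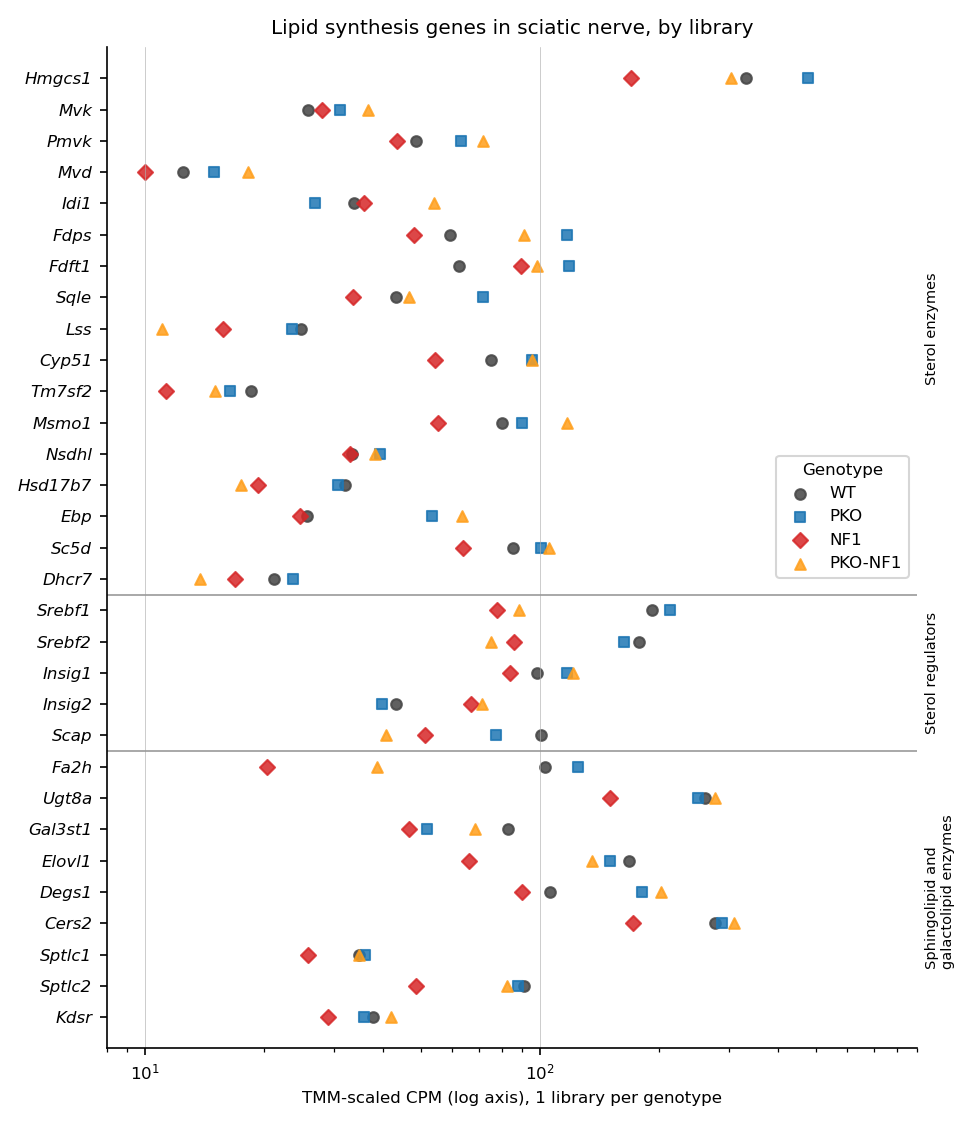
TMM-scaled CPM (log axis) of the 31 genes in each of the 4 libraries, 1 point per library, grouped by role. NF1 (red diamonds) is the lowest library for all 9 sphingolipid and galactolipid enzymes, and both Nf1-mutant libraries lie below both others for Srebf1, Srebf2, Scap and Fa2h.

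The NF1 library held the lowest level of 22 of the 31 genes, where it was the lowest library for 21.7% of all genes tested. This covered 9 of 9 sphingolipid enzymes, 11 of 17 sterol enzymes and 2 of 5 regulators. PKO-NF1 was the lowest for 5 of the 31, against 30.3% of all genes. With scaling by total counts, where the all-gene median of NF1 vs WT was -0.22, NF1 was still the lowest for 21 of the 31. The share of all genes was not counted on that scale.

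Fa2h, which hydroxylates the fatty acids of myelin galactolipids, was the member farthest apart in both Nf1 comparisons. The gene (ENSMUSG00000033579) is on the minus strand of chromosome 8, between 111345135 and 111393824 in GRCm38. The level was 103 CPM in WT, 124 CPM in PKO, 20.4 CPM in NF1 and 38.7 CPM in PKO-NF1. Both Nf1-mutant libraries were below both others. Fa2h was 5.04-fold lower in NF1 than WT (interval 4.52 to 5.63), and in PKO-NF1 3.21-fold lower than PKO (2.94 to 3.51). It was also 2.65-fold lower in PKO-NF1 than in WT (2.42 to 2.91), a comparison without the NF1 library. Once trends with transcript length and with GC content were taken out, its log2 ratios were -2.197 (NF1 vs WT) and -1.51 (PKO-NF1 vs PKO).

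The other sphingolipid and galactolipid enzymes were lower in NF1 than WT, whereas in PKO-NF1 they lay within 1.5-fold of PKO. Elovl1 was at 168 CPM in WT, 150 CPM in PKO, 66.0 CPM in NF1 and 135 CPM in PKO-NF1. That is 2.54-fold lower in NF1 than WT (2.38 to 2.72), and in PKO-NF1 1.11-fold lower than PKO (1.05 to 1.17). Elovl1 (chromosome 4, 118428093 to 118432953, plus strand) overlaps Cdc20 on the other strand, and the sources used here do not say if the counting used strand. Ugt8a stood at 261 CPM in WT, 251 CPM in PKO, 150 CPM in NF1 and 278 CPM in PKO-NF1. It was 1.74-fold lower in NF1 than WT (1.66 to 1.82), and in PKO-NF1 1.10-fold higher than PKO (1.06 to 1.15), a direction that turned net of the length and GC trends (log2 ratio -0.57). Gal3st1, the sulfotransferase that turns galactosylceramide into sulfatide, was at 82.7 CPM in WT, 51.8 CPM in PKO, 46.5 CPM in NF1 and 68.6 CPM in PKO-NF1. For Gal3st1 the NF1 and PKO libraries were both low, and its log2 ratio was -0.83 (NF1 vs WT) and 0.41 (PKO-NF1 vs PKO).

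For ceramide synthesis itself NF1 was again the lowest library. Cers2 was at 277 CPM in WT, 289 CPM in PKO, 172 CPM in NF1 and 309 CPM in PKO-NF1, so NF1 was 1.61-fold lower than WT (1.54 to 1.68). Of the subunits of serine palmitoyltransferase, the entry enzyme, Sptlc2 was 1.88-fold lower in NF1 than WT (1.73 to 2.04) and Sptlc1 1.35-fold lower (1.19 to 1.52). Both had intervals that spanned 1 in PKO-NF1 vs PKO. Kdsr, the next reductase, and Degs1, which desaturates dihydroceramide, were 1.303-fold (1.16 to 1.46) and 1.18-fold (1.10 to 1.26) lower in NF1. Degs1 was higher in both P2ry14-null libraries than in both others, as were Cers2 and Sptlc1 by smaller margins, with 106 CPM of Degs1 for WT and 89.97 CPM for NF1 against 181 CPM for PKO and 202 CPM for PKO-NF1. As a class, 9 of 9 enzymes were lower in NF1 vs WT with intervals that excluded 1 (median log2 ratio -0.80), as were 35.2% of all genes tested. In PKO-NF1 vs PKO 2 were lower, against 35.1% of all genes, 5 higher, against 34.3%, and 2 had intervals that spanned 1 (median 0.09). Net of the length and GC trends the direction of the class turned there, with 8 of 9 below 0 and a median of -0.26, while NF1 vs WT still had 9 of 9 below 0 (median -0.75). The median of all genes tested was 0.00 and -0.01 in these comparisons.

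Regulators of the sterol pathway were the class most alike in both Nf1 comparisons. Srebf1 was at 191 CPM in WT, 213 CPM in PKO, 78.0 CPM in NF1 and 88.5 CPM in PKO-NF1, 2.45-fold lower in NF1 than WT (2.31 to 2.61), and in PKO-NF1 2.41-fold lower than PKO (2.27 to 2.56). Srebf2, the main activator of the sterol enzymes, was at 178 CPM in WT, 163 CPM in PKO, 86.1 CPM in NF1 and 75.2 CPM in PKO-NF1. It was 2.07-fold lower in NF1 (1.95 to 2.19) and 2.16-fold lower in PKO-NF1 (2.02 to 2.31). Scap was at 100 CPM in WT, 77.5 CPM in PKO, 51.3 CPM in NF1 and 40.6 CPM in PKO-NF1, or 1.96-fold (1.81 to 2.12) and 1.91-fold (1.74 to 2.09) lower, just short of the 2-fold threshold. For all 3 genes both Nf1-mutant libraries were below both others.

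The retention factors did not follow them. Insig2 was at 43.3 CPM in WT, 39.9 CPM in PKO, 67.0 CPM in NF1 and 71.1 CPM in PKO-NF1. It was 1.55-fold higher in NF1 than WT (1.41 to 1.70), and in PKO-NF1 1.78-fold higher than PKO (1.62 to 1.96). Insig1, itself an SREBP target, ranged only from 83.9 CPM in NF1 to 121 CPM in PKO-NF1.

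GC content and transcript length moved with the regulators. The GC content of the longest transcript was 58.4% for Srebf1, 57.9% for Srebf2 and 59.1% for Scap, against 46.0% for Insig2 and a median of 49.7% over genes tested. Net of the length and GC trends, the log2 ratio in NF1 vs WT was -0.70 for Srebf1, -0.37 for Srebf2, -0.36 for Scap and 0.34 for Insig2. In PKO-NF1 vs PKO it was -0.62, -0.38, -0.26 and 0.41 in the same order, so that Srebf1 and Srebf2 no longer reached 2-fold, and all 4 kept their directions. Srebf2 overlaps the microRNA gene Mir33, and Srebf1 overlaps Rai1 on the other strand.

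**Figure D2:**
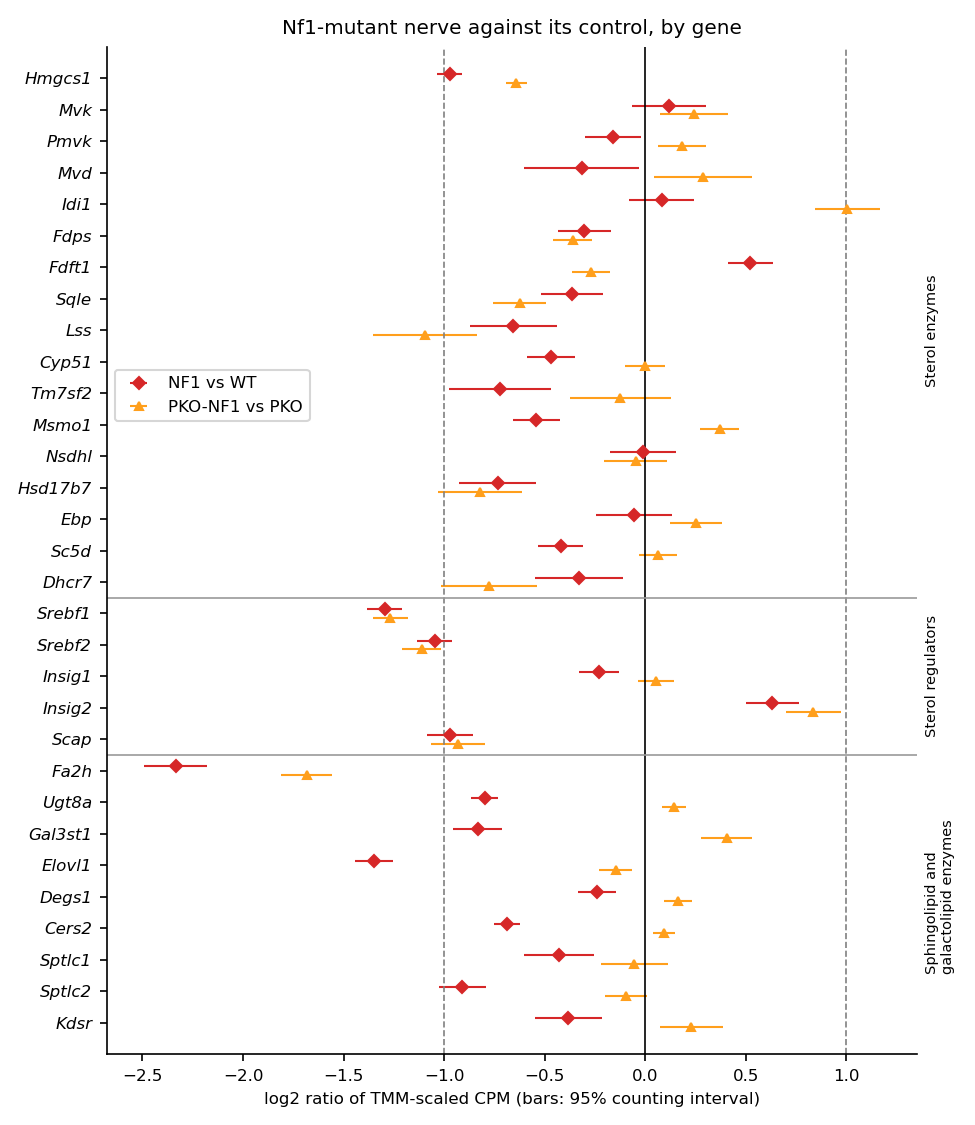
Log2 ratio of TMM-scaled CPM in NF1 vs WT (red diamonds) and PKO-NF1 vs PKO (orange triangles) for each gene, with bars for the 95% counting interval and dashed lines at 2-fold. The pairs coincide for Srebf1, Srebf2 and Scap, and separate for the sphingolipid enzymes other than Fa2h, where every red point lies left of 0 and the orange points lie between -0.15 and 0.41.

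The sterol enzymes had smaller and more scattered differences. Of 17, 12 were lower and 1 higher in NF1 vs WT with intervals that excluded 1 (median -0.33), where 35.2% and 34.2% of all genes were. By the same rule 7 were lower and 6 higher in PKO-NF1 vs PKO (median -0.05), against 35.1% and 34.3%. Hmgcs1 (chromosome 13, 119690379 to 119708260, plus strand) was at 333 CPM in WT, 476 CPM in PKO, 170 CPM in NF1 and 305 CPM in PKO-NF1. That is 1.96-fold lower in NF1 than WT (1.88 to 2.05), and in PKO-NF1 1.56-fold lower than PKO (1.505 to 1.61). Net of the length and GC trends Hmgcs1 passed 2-fold in both, at log2 ratios of -1.25 and -1.11.

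The steps from HMG-CoA to squalene were uneven. The mevalonate kinase Mvk was between 25.8 CPM in WT and 36.7 CPM in PKO-NF1, and its ratio of NF1 to WT had an interval that included 1. Pmvk, which adds the next phosphate, and the decarboxylase Mvd were slightly lower in NF1 vs WT (log2 ratio -0.16 and -0.32) and higher in PKO-NF1 vs PKO (0.18 and 0.29). Idi1, the isopentenyl diphosphate isomerase, was at 33.8 CPM in WT, 26.9 CPM in PKO, 35.7 CPM in NF1 and 53.9 CPM in PKO-NF1. It was 2.01-fold higher in PKO-NF1 than PKO (1.79 to 2.25), which falls under 2-fold with DESeq2 size factors and becomes a log2 ratio of 0.38 net of the length and GC trends. Fdps, the farnesyl diphosphate synthase, was lower in both Nf1 comparisons (log2 ratio -0.30 and -0.36). The squalene synthase Fdft1 was at 62.4 CPM in WT, 118 CPM in PKO, 89.6 CPM in NF1 and 98.1 CPM in PKO-NF1, so WT was the lowest library. Fdft1 overlaps Ctsb on the other strand.

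After squalene, several enzymes were lower in both Nf1 comparisons. Lss was at 24.8 CPM in WT, 23.6 CPM in PKO, 15.7 CPM in NF1 and 11.0 CPM in PKO-NF1. It was 1.58-fold lower in NF1 than WT (1.36 to 1.83), and in PKO-NF1 2.13-fold lower than PKO (1.79 to 2.55), or a log2 ratio of -0.75 in the latter net of the trends. Sqle, the squalene epoxidase, was 1.29-fold (1.16 to 1.43) and 1.54-fold (1.41 to 1.69) lower. Hsd17b7, a keto-reductase of sterol demethylation, was 1.66-fold (1.45 to 1.90) and 1.77-fold (1.53 to 2.04) lower, and Dhcr7, which catalyses a last reduction to cholesterol, 1.26-fold (1.08 to 1.46) and 1.71-fold (1.45 to 2.02).

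The other demethylation and late steps did not share that pattern. Cyp51, the lanosterol demethylase, was at 75.0 CPM (WT), 95.4 CPM (PKO), 54.2 CPM (NF1) and 95.3 CPM (PKO-NF1). Msmo1, the methylsterol oxidase, was lower in NF1 vs WT (log2 ratio -0.54) and higher in PKO-NF1 vs PKO (0.37), or -0.09 in the latter net of the trends. The desaturase Sc5d and the sterol reductase Tm7sf2 were lower in NF1 (-0.42 and -0.72), with intervals that spanned 1 in PKO-NF1 vs PKO. Nsdhl, a sterol dehydrogenase, had intervals that included 1 in both comparisons, and stood at 33.3 CPM (WT) and 33.1 CPM (NF1).

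Counted by the 2-fold rule, which also asks that the interval exclude 1, 4 of 31 genes were lower in NF1 vs WT (Srebf1, Srebf2, Fa2h and Elovl1), against 6.31% of all genes tested. None was higher, against 10.4%. In PKO-NF1 vs PKO 4 were lower (Lss, Srebf1, Srebf2 and Fa2h), against 9.7% of all genes, and 1 was higher (Idi1), against 5.2%. Lower in both were 3 of 31, against 2.6% of all genes, and these comparisons share no library. At 1.5-fold, 13 of 31 were lower in NF1 vs WT against 16.7% of all genes, and 1 was higher against 19.2%. In PKO-NF1 vs PKO 9 were lower against 20.1%, and 2 higher against 15.6%. Net of the length and GC trends, 4 genes were at least 2-fold lower in NF1 vs WT (Hmgcs1, Fa2h, Ugt8a and Elovl1), against 4.61% of all genes. They were 3 in PKO-NF1 vs PKO (Hmgcs1, Hsd17b7 and Fa2h), against 5.02%. The 3 genes shared without the correction thus became Hmgcs1 and Fa2h with it.

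**Figure D3:**
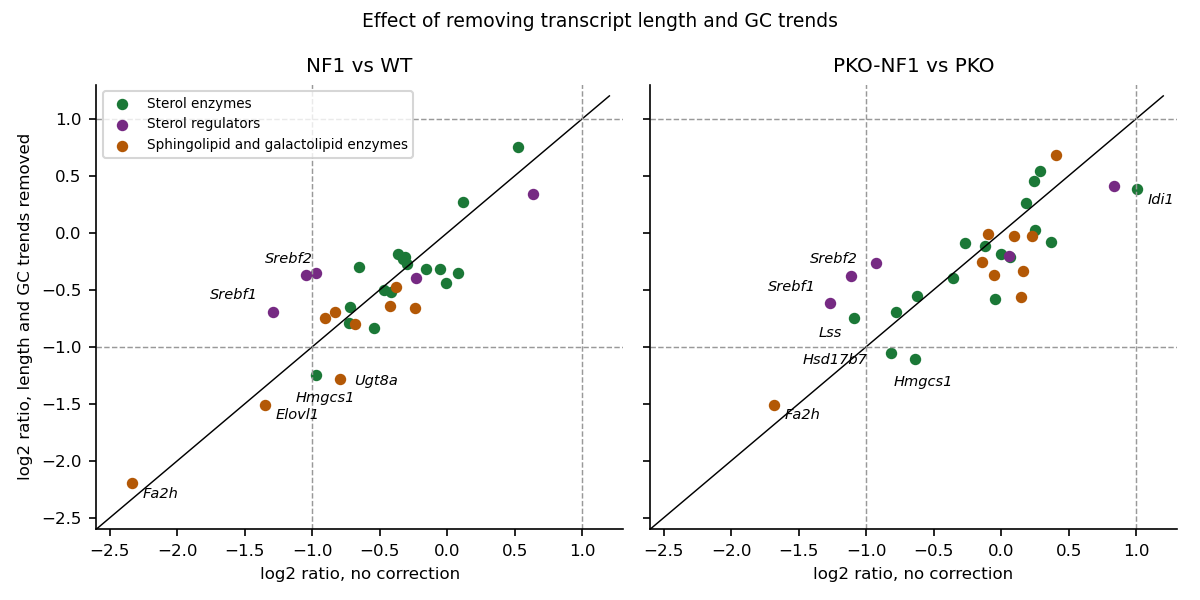
Log2 ratio of each gene as measured (x axis) and net of the length and GC trends (y axis), for NF1 vs WT and PKO-NF1 vs PKO, with dashed lines at 2-fold and the diagonal of equal values. Srebf1 and Srebf2 move inside the 2-fold lines, Hmgcs1 moves outside in both panels, and Fa2h lies beyond 2-fold on both axes.

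Across libraries, both Nf1-mutant libraries were below both others for 11 of 31 genes, against 20.5% of all genes tested, and above both for 2 (Idi1 and Insig2), against 19.8%. The 11 were Hmgcs1, Lss, Tm7sf2, Hsd17b7, Dhcr7, Srebf1, Srebf2, Scap, Fa2h, Elovl1 and Sptlc2. For 9 of 31 genes the Nf1 comparisons ran in opposite directions with both intervals excluding 1, against 11.5% of all genes.

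The sterol genes, enzymes and regulators together, were then set against the sphingolipid enzymes. The median log2 ratio in NF1 vs WT was -0.35 over the 22 sterol genes and -0.80 over the 9 sphingolipid enzymes, a difference of 0.45. In PKO-NF1 vs PKO the medians were -0.09 and 0.09, a difference of -0.18, which became 0.0447 net of the length and GC trends. Against the pooled sterol genes, the sphingolipid enzymes were the lower set in NF1 vs WT and the higher in PKO-NF1 vs PKO. Neither difference was tested against a spread between animals. A change of scaling moves both sets alike and leaves these differences as they are. The pooled sterol genes mix enzymes, with medians of -0.33 and -0.05, and regulators, with medians of -0.97 and -0.93. In both comparisons the regulator median lay below that of the sphingolipid enzymes before any correction. Net of the length and GC trends it lay above theirs in NF1 vs WT (-0.37 against -0.75). In PKO-NF1 vs PKO the medians were then nearly equal, -0.262 for the regulators and -0.257 for the sphingolipid enzymes.

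Marker lists of myelin, of the Schwann cell lineage and of muscle also differed between libraries, not always in the direction of the 31 genes. Of all genes tested, 6.31% were at least 2-fold lower and 10.4% higher in NF1 vs WT, and 9.7% and 5.2% in PKO-NF1 vs PKO. Of 19 myelin protein genes 13 were at least 2-fold lower and 1 higher in NF1 vs WT (median -1.22). In PKO-NF1 vs PKO 6 were lower and 2 higher (median -0.41). Net of the length and GC trends 13 and 4 were lower, against 4.61% and 5.02% of all genes. By that correction 0 and 1 were higher, with no share of all genes counted. Schwann cell lineage genes had medians of -0.46 and 0.10, with Sox10 at 260 CPM in WT, 161 CPM in PKO, 141 CPM in NF1 and 67.9 CPM in PKO-NF1. Sox10 had the lowest log2 ratio of the 10 listed lineage genes both times (-0.88 and -1.25). Of these 10 genes, 8 lay below 0 in the first comparison and 6 above 0 in the second. Of 20 skeletal muscle genes 20 were higher in NF1 vs WT, against 10 for PKO-NF1 vs PKO, and their summed level was 1173 CPM in WT, 189 CPM in PKO, 64734 CPM in NF1 and 382 CPM in PKO-NF1. The part of muscle RNA in the values of the NF1 library was not tested. Leaving muscle and adipocyte genes out of the scaling moved none of the 31 log2 ratios of either comparison beyond its counting interval.

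**Figure D4:**
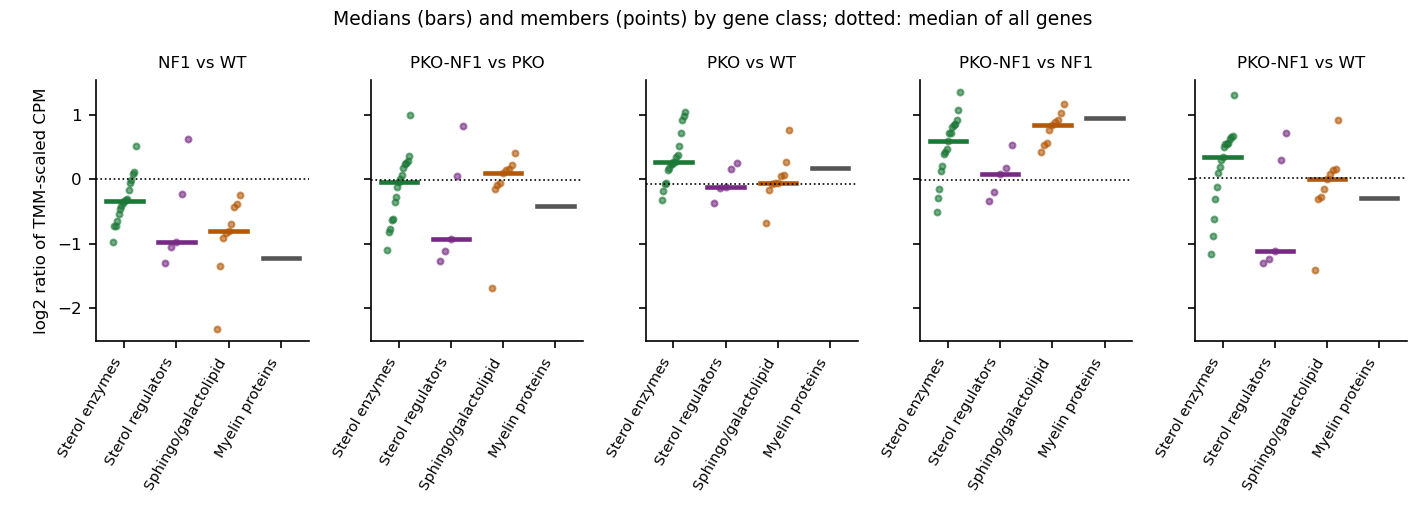
Log2 ratio of TMM-scaled CPM by class in the 5 comparisons: points are the member genes, thick bars the class medians, and the dotted line the median of all genes tested. For the myelin protein genes only the median is drawn. The sphingolipid median lies at -0.80 in NF1 vs WT and close to 0 for PKO-NF1 vs PKO, PKO vs WT and PKO-NF1 vs WT.

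Loss of P2ry14 alone, PKO vs WT, went with somewhat higher levels of sterol enzymes on the TMM scale. Of 17 enzymes 11 were higher and 1 lower with intervals that excluded 1 (median 0.26, all genes -0.08), against 29.1% and 37.7% of all genes, but scaled by total counts, which put the median of all genes at -0.54, the enzyme median was -0.19. Ebp, the sterol isomerase (chromosome X, 8185329 to 8193512, minus strand), was at 25.7 CPM in WT, 53.3 CPM in PKO, 24.7 CPM in NF1 and 63.5 CPM in PKO-NF1. Both P2ry14-null libraries were above both others. Ebp was 2.08-fold higher in PKO than in WT (1.85 to 2.33), the 1 member past 2-fold, against 10% of all genes, and its log2 ratio was 0.56 net of the length and GC trends. None was 2-fold lower, against 5.22%. At 1.5-fold 5 were higher (Fdps, Fdft1, Sqle, Ebp and Degs1), against 16.2% of all genes, and Gal3st1 was lower, 1 of 31 against 15.3%.

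Fdps went from 59.1 CPM (WT) to 117 CPM (PKO), 1.98-fold higher (1.83 to 2.13), and Fdft1 was 1.89-fold higher (1.76 to 2.04). Sqle was 1.65-fold higher (1.51 to 1.81). The regulators had a median of -0.12 and the sphingolipid enzymes of -0.05, so that the sterol genes exceeded the sphingolipid enzymes by 0.29 on the log2 scale, or by 0.0557 net of the length and GC trends. Both P2ry14-null libraries were above both others for 15 of 31 genes, against 23.4% of all genes, and below both for 0, against 24.4%. By total counts these numbers were 3 and 0, with no share of all genes counted on that scale. Adipocyte genes, which mark the fat around the nerve, moved along: their summed level was 10443 CPM in WT, 23768 CPM in PKO, 6506 CPM in NF1 and 18485 CPM in PKO-NF1. Their part in the sterol values was not tested.

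PKO-NF1 vs NF1 sets the Nf1-mutant libraries against each other. Nf1 RNA also differed there, at 63.4 CPM in NF1 and 20.5 CPM in PKO-NF1, 3.09-fold lower (2.74 to 3.50). In this comparison 4 of 31 genes were at least 2-fold higher, against 7.9% of all genes, and 0 lower, against 13.8%. They were Ebp (2.57-fold, 2.31 to 2.87), Degs1 (2.25-fold, 2.12 to 2.38), Msmo1 (2.12-fold, 1.97 to 2.29) and Elovl1 (2.05-fold, 1.92 to 2.199). None of these 4 was past 2-fold net of the length and GC trends (log2 ratios 0.97, 0.71, 0.81 and 0.73 in the same order), and the 1 gene that was is Sptlc2 (1.13). At 1.5-fold 15 were higher, against 20% of all genes, and 0 lower, against 24.1%. This comparison shares the NF1 library with NF1 vs WT and the PKO-NF1 library with PKO-NF1 vs PKO, and the skeletal muscle genes that set NF1 apart were lower in 20 of 20. All 9 sphingolipid enzymes were higher with intervals that excluded 1 (median 0.85), as were 14 of 17 sterol enzymes (median 0.59) and 37.1% of all genes tested. Lower by that rule were 2 sterol enzymes, against 37.5%. The regulators had a median of 0.09.

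PKO-NF1 vs WT leaves the NF1 library out. There 5 genes were at least 2-fold lower, against 17.5% of all genes: Lss (2.24-fold, 1.88 to 2.69), Srebf1 (2.16-fold, 2.03 to 2.30), Srebf2 (2.36-fold, 2.21 to 2.53), Scap (2.47-fold, 2.26 to 2.71) and Fa2h. Ebp was 2.47-fold higher (2.21 to 2.77), 1 of 31 against 14.7% of all genes. At 1.5-fold 7 were lower, against 27.9%, and 6 higher, against 26.6%. Net of the length and GC trends only Fa2h, of the 6, was past 2-fold, and the log2 ratio of Srebf2 was 0.023. The sphingolipid median was 0.00 and the sterol enzyme median 0.35.

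An additive model over all 4 libraries, with a term for Nf1 and a term for P2ry14, gave the 1 available test. The interaction is what its 1 residual degree of freedom holds, so the p-values weigh a term only against non-additivity, with no spread between mice in them. By edgeR's quasi-likelihood test with Benjamini-Hochberg adjustment over 14105 genes, the Nf1 term called 0 of 31 members and 0% of all genes. At an unadjusted p under 0.05 it had 6 members lower (Fa2h, Srebf1, Srebf2, Scap, Lss and Hsd17b7), against 12.7% of all genes, and Insig2 higher, against 8.17%. Fa2h had a fitted log2 change of -2.01 (SE 0.27, edgeR adjusted p 0.168) and Srebf1 one of -1.28 (SE 0.26, edgeR adjusted p 0.168). Insig2 had a log2 change of 0.73 (SE 0.21, edgeR adjusted p 0.185). Each SE of the edgeR fit was derived as the absolute log2 change over the square root of the F statistic. Like the p-values, it holds no spread between mice. DESeq2's Wald test called 2 members at this term, Fa2h (adjusted p 7.34e-05) and Srebf1 (adjusted p 0.0189), against 2.01% of all genes.

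At the P2ry14 term edgeR called 0 of 31 members against 0.0496% of all genes. Unadjusted, 4 members were higher (Ebp, Fdps, Degs1 and Sqle), against 11.5%, and 0 lower, against 13.6%. Ebp had a log2 change of 1.21 (SE 0.22, edgeR adjusted p 0.142), and by DESeq2 it was the 1 member called (adjusted p 0.0308), against 5.1% of all genes.

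Related lipid genes outside the 31 were counted from 3 lists. Of 33 measured other sphingolipid genes 4 were at least 2-fold higher and 2 lower in NF1 vs WT (median -0.26), and 2 higher and 2 lower in PKO-NF1 vs PKO (median 0.00). Of all genes tested, 10.4% were higher and 6.31% lower in NF1 vs WT, and 5.2% and 9.7% in PKO-NF1 vs PKO. Ptpla, a dehydratase of fatty acid elongation also known as Hacd1 and abundant in muscle, was 5.79-fold higher in NF1 (4.97 to 6.76), and the ceramidase Acer3 2.31-fold higher (2.09 to 2.55). The elongase Elovl7 was 2.05-fold lower there (1.82 to 2.30). In PKO-NF1 the sphingomyelinase Smpd3 was 3.26-fold lower than in PKO (2.90 to 3.66) and the ceramide synthase Cers6 2.50-fold lower (1.91 to 3.31). Ormdl1, an inhibitor of serine palmitoyltransferase, was 2.79-fold higher (2.36 to 3.32), and the sphingosine kinase Sphk1 2.28-fold higher (1.60 to 3.29). Of the named genes of this list, Ormdl1 fell short of 2-fold net of the trends (log2 ratio 0.74).

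Fatty acid synthesis genes, largely SREBP-1 targets that adipocytes also express, had 2 higher and 1 lower of 17 in NF1 vs WT (median 0.28), and 1 higher and 4 lower in PKO-NF1 vs PKO (median -0.73). These counts stand against 10.4% higher and 6.31% lower of all genes in NF1 vs WT, and 5.2% and 9.7% in PKO-NF1 vs PKO. Scd2, a stearoyl-CoA desaturase, was 2.58-fold lower in NF1 (2.52 to 2.64), while the malic enzyme Me1 was 2.91-fold (2.81 to 3.01) and the citrate lyase Acly 2.38-fold higher (2.26 to 2.51). The acetyl-CoA carboxylases Acaca (2.64-fold, 2.47 to 2.81) and Acacb (2.54-fold, 2.28 to 2.85) were lower in PKO-NF1 than in PKO, and Thrsp, a lipogenic nuclear protein, was 2.21-fold higher (2.16 to 2.27). In PKO-NF1 vs PKO 0 of 17 were past 2-fold net of the length and GC trends (median -0.32), with log2 ratios of -0.87 for Acaca, -0.36 for Acacb and 0.95 for Thrsp. Of 21 genes of sterol uptake, efflux and storage, 2 were lower and 0 higher in each Nf1 comparison (medians -0.47 and -0.14), against the same shares of all genes. The sterol exporter Abcg1 was lower in both, 3.82-fold in NF1 vs WT (3.12 to 4.69) and 2.45-fold in PKO-NF1 vs PKO (2.06 to 2.93). Lrp1, a lipoprotein receptor, was 2.07-fold lower in NF1 than WT (2.002 to 2.14). Net of the trends 0 of 21 were past 2-fold in PKO-NF1 vs PKO, where Abcg1 was at a log2 ratio of -0.77, and in NF1 vs WT Abcg1 was at -1.42 and Lrp1 at -0.37.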

How the data were processed

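Sciatic nerve RNA of 4 mouse genotypes was measured in 1 library each. The authors deposited 1 table of raw whole-number counts per gene symbol, used as deposited. HISAT2 2.0.5, featureCounts 1.5.2, FastQC 0.11.7 and the mouse build mm10 are listed in the submitters' processing notes. The sources used here do not give strandedness or annotation, so counts of overlapping genes are uncertain. Among members not marked above, Cyp51 overlaps Akap9 and Cers2 overlaps Setdb1 on the other strand, and Tm7sf2 overlaps Vps51 on the same strand. Samples were grouped by title.

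TMM factors from edgeR 4.0.16 turned counts into CPM, and a gene needed 1 CPM in any library to be kept. Ratios carry Clopper-Pearson 95% intervals. Because reads carry no molecular identifiers, PCR copies are counted as separate molecules. A gene was called at 2-fold with an interval excluding 1. The additive model used edgeR glmQLFit on genes at 1 CPM in 2 libraries, with adjusted p under 0.05, and DESeq2 1.42.0 as the alternative. Both scripts were tested on simulated data. Transcript length, GC content and gene coordinates came from GENCODE M21 on GRCm38, and trends were splines (4 degrees of freedom each) in log10 length and GC percent of the longest transcript, subtracted with the median gene keeping its value. To this annotation 22750 symbols matched directly and 934 through a synonym.

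The 31 members, the gene lists and the alternatives were chosen with earlier results of these data known. All members are named. For the 3 related lists, up to 2 called genes in each direction of each Nf1 comparison are named, ranked by the weaker end of the interval, if they reached 5 CPM. Of the marker lists, counts and medians are given, and the endothelial, perineurial and macrophage lists are in the closing section. Alternatives were DESeq2 size factors, total counts, no expression filter, a 5 CPM filter, muscle and adipocyte genes left out, the trends removed, 1.5-fold, and for the model also 1 genotype term alone. The level of 1 marker gene is not reported here.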

Additional observations from a re-analysis of the deposited data

Results flagged for a closer look

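For 9 members the Nf1 comparisons ran in opposite directions with both counting intervals excluding 1, that is 9 of 31 against 11.5% of all genes tested. The difference between the comparisons was not tested, since each rests on 1 library per genotype. As the log2 ratio of PKO-NF1 vs PKO minus that of NF1 vs WT, the values were 1.24 for Gal3st1, 0.94 for Ugt8a, 0.91 for Msmo1, 0.78 for Cers2, 0.61 for Kdsr, 0.60 for Mvd, 0.40 for Degs1 and 0.34 for Pmvk, each lower in NF1 and higher in PKO-NF1 than in its control. Fdft1, at -0.79, went the other way. With the length and GC trends removed, 2 of the 9, Pmvk and Gal3st1, still ran in opposite directions with intervals excluding 1. Scaled by total counts, all 9 did.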

How the results depend on the processing

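With 1 library per genotype, leaving out a replicate was not possible. No paired analysis was possible because the labels give no replicate numbers. Depth limited few values: counting intervals of members are narrow, and the missing quantity is the spread between animals. DESeq2 size factors, no expression filter, a 5 CPM filter and leaving out muscle and adipocyte genes kept the counts of higher and lower members, except that with DESeq2 size factors 0 were higher in PKO-NF1 vs PKO. A change of expression filter could not alter these counts, since the scaling does not use the filter.

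Scaled by total counts, 9 members were lower in NF1 vs WT, 1 lower and 0 higher in PKO vs WT, 2 higher in PKO-NF1 vs NF1 and 0 higher in PKO-NF1 vs WT. Under that scaling the median of all genes was -0.22 in NF1 vs WT and -0.54 in PKO vs WT. It was -0.18 in PKO-NF1 vs NF1 and -0.37 in PKO-NF1 vs WT. The share of all genes called under it was not counted, so these member counts have no background to be read against. With the length and GC trends removed, 0 members were higher in PKO vs WT, PKO-NF1 vs WT or PKO-NF1 vs PKO, 1 was higher in PKO-NF1 vs NF1 (Sptlc2, which is none of the 4 higher before), and 1 was lower in PKO-NF1 vs WT. The sterol median minus the sphingolipid median then became 0.0447 in PKO-NF1 vs PKO, a reversal from -0.18, and 0.0557 in PKO vs WT. The log2 ratio of Srebf2 in PKO-NF1 vs WT reversed to 0.023. The cause of these shifts was not tested. Net of the trends, the share of all genes called was counted only for lower genes in NF1 vs WT and PKO-NF1 vs PKO. The trend-removed member counts of this paragraph thus have no background to be read against.

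At 1.5-fold, which calls more genes by construction, higher and lower members numbered 1 and 13 for NF1 vs WT, 2 and 9 for PKO-NF1 vs PKO, 5 and 1 in PKO vs WT, 15 higher in PKO-NF1 vs NF1 and 6 higher in PKO-NF1 vs WT. In the additive model the Nf1 term called 2 members with total counts in edgeR, against 1098 of 14090 genes tested, and 2 with the DESeq2 Wald test. The P2ry14 term called 1 with total counts, against 2640 of 14090, and 1 with the Wald test. No expression filter, DESeq2 size factors in edgeR and 1 genotype term alone called 0 at either term. Of 155 member ratios, 46 stayed within the counting interval with the length and GC trends removed, and 38 with total counts. All 155 stayed under each of the other 4 settings, where the expression filters leave a member ratio unchanged by construction. Of the 129 ratios whose interval excluded 1, 22 changed sign with the length and GC trends removed and 17 with total counts, and 0 under the other 4 settings. Among ratios past 2-fold, Srebf2 in PKO-NF1 vs WT was the 1 that changed sign.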

Other observations

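Marker lists of the other cells of the nerve give the setting of these values. Of all genes tested, 6.31% were at least 2-fold lower and 10.4% higher in NF1 vs WT, and 9.7% and 5.2% in PKO-NF1 vs PKO. Endothelial genes had 7 of 12 at least 2-fold lower in NF1 vs WT (median log2 ratio -1.13) and 6 of 12 in PKO-NF1 vs PKO (median -0.93), or 6 of 12 (median -0.99) and 2 of 12 (median -0.61) with the length and GC trends removed. Perineurial and fibroblast genes had 1 of 12 lower in each (medians -0.44 and -0.15). Macrophage genes had 2 higher and 1 lower of 12 in NF1 vs WT (median -0.03) and 1 higher in PKO-NF1 vs PKO (median 0.17). Adipocyte genes had 11 lower and 1 higher of 17 in NF1 vs WT (median -1.15) and 4 lower in PKO-NF1 vs PKO (median -0.40), or 9 and 2 lower with the trends removed. Perineurial and fibroblast genes then had 0 lower in each, and macrophage genes 1 higher and 1 lower in NF1 vs WT. Egr2, a transcription factor of myelination, was at 63.6 CPM in WT, 61.2 CPM in PKO, 40.5 CPM in NF1 and 38.3 CPM in PKO-NF1.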
